A study of Rattus norvegicus with 12 samples.

Results

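The 2 control groups of a study of the chemokine-like factor CKLF1 were compared in rat aortic smooth muscle cells. One group, scramble with TNF, had received an adenovirus carrying a scrambled short hairpin RNA and was then treated for 24 h with 25 µg/L of the cytokine TNF (tumour necrosis factor alpha). The other, Ad-GFP, had received an adenovirus carrying green fluorescent protein, and the labels give no TNF treatment for it. The members are these 6 libraries of the 12 in the series, 3 per group, chosen by sample title. The other 6 libraries are Ad-Cklf1, which overexpressed Cklf1 and has no TNF treatment in the labels, and shRNA Cklf1 with TNF, in which Cklf1 was targeted by a hairpin. All groups were explant-derived primary cells from the media of the thoracic aorta of male rats, of a strain the labels write as Sprague-Dailey, used at passage 4. Every group was infected overnight and, once 75% confluent, held at 0.2% serum (24 to 32 h), so that virus and serum withdrawal are common to all. The labels give the rats' sex and weight but no age. Nothing in them says that the triplicates came from separate animals or cultures. The p-values therefore set each difference only against the spread among these samples, and that spread may be technical.

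The 2 groups differ in TNF, in what the virus carried (a hairpin or green fluorescent protein) and in any batch of their arm. Their parts in any difference given here cannot be told apart.

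TNF is a cytokine released by activated macrophages and other cells. It binds receptors on the cell surface and, through adaptor proteins and kinases, releases the transcription factor NF-κB from its inhibitors, which raises the transcription of chemokines, adhesion molecules and the pathway's own inhibitors. In cultured vascular smooth muscle it is known for this inflammatory response and for lowering contractile genes. Adenoviral infection and serum withdrawal also change the expression of such cells, and both were present on each side of the comparison.

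The files pair the transcripts with no gene names, and 0 Ensembl identifiers were matched in the gene table used here. Known TNF target genes, smooth muscle markers and markers of other cell types were therefore not checked here, and neither was the level of Cklf. The results describe transcripts by level, by size of difference and by their levels in each group. By the rule for named features, 2 transcripts that were higher and 2 that were lower are named. In bulk RNA, fewer cells of a type and less RNA per cell cannot be told apart.

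The unit is FPKM, fragments normalised by transcript length and library size, which records no read counts. A rough relative depth was read from low values, between 0.001 and 0.1 FPKM. It is the inverse of their most frequent ratio to the values of Ad-GFP replicate 1, which is set to 1. This depth was 0.973 to 1.28 in Ad-GFP and 0.616 to 0.660 in scramble with TNF. In the other groups it was 0.717 to 0.835 (Ad-Cklf1) and 0.616 to 0.758 (shRNA Cklf1 with TNF). An Ad-GFP library listed 8164 to 8680 of the 29330 transcripts at 0, and a scramble library 9634 to 9735. The lower estimated depth thus went with more transcripts listed at 0 in scramble. An exact permutation test of 3 against 3 libraries cannot go below p = 0.10, and it gave that value for both measures (2-sided). The part of depth in the results at low levels was not tested.

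Many transcripts differed between the control groups, mostly by small amounts. Of the 13729 transcripts that averaged 1 FPKM or more across the 6 libraries, 3964 were higher (28.9%) and 4202 lower (30.6%) in scramble with TNF than in Ad-GFP. This is 59.5% of those tested (limma, Benjamini-Hochberg adjusted p below 0.05). The share was 39.4% of 22806 transcripts without the filter on low values, and 46.0% of the 13729 after scaling all libraries to the same FPKM sum. With 1 very abundant transcript, ENSRNOT00000091327, left out of that sum, it was 59.4%. Called changes had a median of 0.49 log2 units in size, or 1.41-fold, and 50.96% of the 8166 called transcripts moved by less than 0.5 log2 units. The remaining 5563 transcripts differed by a median of 0.12 log2 units in size, direction left aside. Fold changes were taken on log2(FPKM + 1), where changes of low transcripts come out too small. The 3 libraries of one group lay entirely above those of the other for 65.7% of all tested transcripts. Among the called transcripts this held for 97.5%. The calls were made on the same values, so this share is no separate result.

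The balance between rises and falls depended on the size of the change. Here and below, transcripts that rose or fell by a given size are those that were also called. At 1 log2 unit or more, 535 transcripts rose (3.9%) and 779 fell (5.67%). At 2 units or more the numbers were 113 and 98. At 3 units or more, 38 rose and 10 fell, at 4 or more 19 rose and 3 fell, and at 5 or more 9 rose and 2 fell. Falls were thus more numerous among moderate changes, and rises among the largest. These are counts of transcripts, and the isoforms of 1 gene are not independent of each other. That scaling to equal sums, which shifts the median of all tested transcripts from -0.00 to -0.12 log2 units, left 33.7% of the called transcripts higher against 48.5% as deposited. With ENSRNOT00000091327 left out of the sum, the same scaling gave 50.6%.

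**Figure D1:**
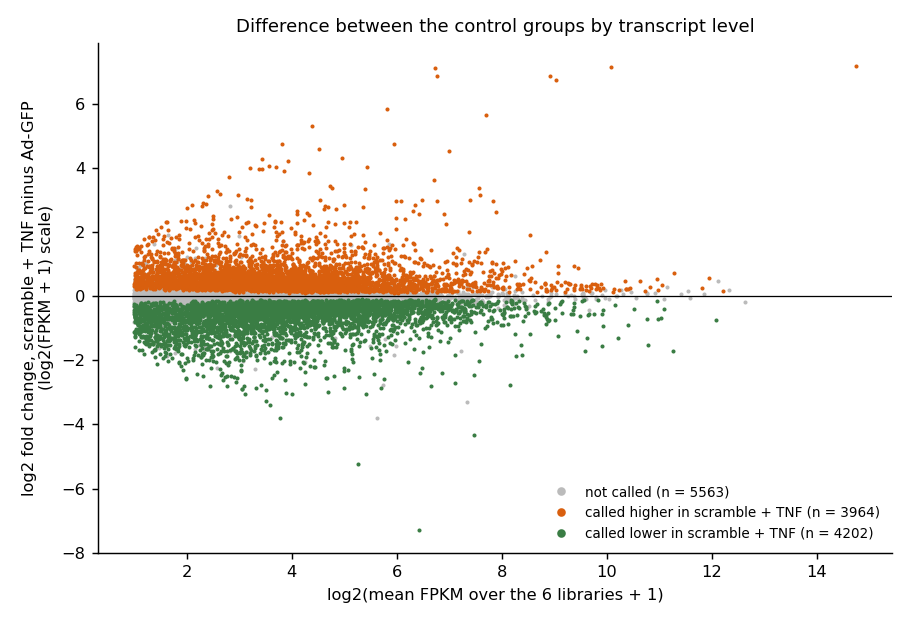
Each point is 1 of the 13729 tested transcripts. The horizontal axis is the log2 of its mean FPKM over the 6 libraries plus 1, and the vertical axis its log2 fold change, scramble with TNF minus Ad-GFP. Orange and green mark the 3964 transcripts called higher and the 4202 called lower. Called points at 4 log2 units or more are more numerous (19) than those at -4 or less (3).

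The balance of rises and falls of at least 1 log2 unit varied between classes of level, and not in the same direction throughout. Classes were formed by mean FPKM over the 6 libraries. Between 1 and 3 FPKM, 3.92% of 2548 transcripts rose and 7.54% fell by at least 1 log2 unit. Between 3 and 10 FPKM the shares were 3.598% and 6.64% of 4280 transcripts. They were closer at 10 to 30 FPKM (3.44% and 4.54% of 4100) and at 30 to 100 FPKM (4.75% and 4.36% of 2042). Between 100 and 300 FPKM rises were more frequent, with 6.53% of 536 transcripts higher and 2.80% lower. Among the 171 transcripts from 300 to 1000 FPKM the shares were 3.51% and 5.85%, and among the 52 from 1000 FPKM 3.85% and 5.77%. Calls of any size were made for 44.7% of transcripts at 1 to 3 FPKM and for 75.6% at 100 to 300 FPKM. The spread between replicates went the other way, with a median SD of 0.15 (Ad-GFP) and 0.17 (scramble) log2 units in the lowest class and of 0.05 in both groups at 100 to 300 FPKM. The median size of the difference was similar in these classes, at 0.36 and 0.33 log2 units.

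**Figure D2:**
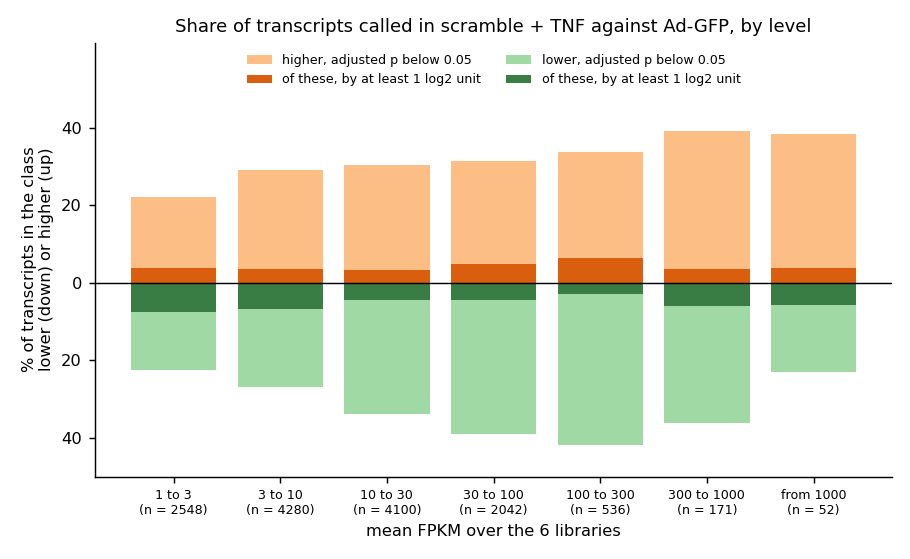
Bars give, for each class of mean FPKM over the 6 libraries, the percent of transcripts called higher (up) and lower (down) in scramble with TNF than in Ad-GFP. Dark parts are changes of at least 1 log2 unit. The dark part of the rises is largest at 100 to 300 FPKM (6.53%), and that of the falls at 1 to 3 FPKM (7.54%).

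The most abundant transcripts were largely the same in both groups. Of the 100 with the highest mean FPKM in Ad-GFP, 84 were also among the top 100 in scramble with TNF. The 16 that entered the top 100 in scramble were chosen by the means that the test compares, so their calls are no separate result. Of these, 3 rose by at least 2 log2 units. These 3 came from ranks below 1000 in Ad-GFP, 1 of them from rank 7887. The 16 that left the top 100 were no lower than rank 211 in scramble. Among the top 500, 87 entries came from a median Ad-GFP rank of 684, and as many departures went to a median scramble rank of 630. Some moves were long, with 26 of the 87 entries from ranks below 1000 in Ad-GFP. The longest were an entry from rank 13647 and a departure to rank 13723.5. Within the Ad-GFP top 100, 33 transcripts rose and 32 fell, of which 1 (ENSRNOT00000091327) rose and 8 fell by at least 1 log2 unit. Over all tested transcripts the shares were 28.9% and 30.6%, and 3.9% and 5.67% at 1 log2 unit. This top 100 was picked by its level in Ad-GFP, which favours falls over rises, so its counts are no separate result.

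The 534 transcripts called higher by at least 1 log2 unit, ENSRNOT00000091327 left out, took 1.501% to 1.558% of the FPKM sum of an Ad-GFP library. In scramble they took 5.71% to 5.82%. Their summed level in the libraries that did not enter the comparison was 1.71% to 1.74% in Ad-Cklf1 and 5.003% to 5.373% in shRNA Cklf1 with TNF. The 779 transcripts called lower by at least 1 log2 unit took 6.79% to 6.86% in Ad-GFP and 2.22% to 2.35% in scramble. They took 5.52% to 5.58% in Ad-Cklf1 and 2.87% to 3.19% in shRNA Cklf1 with TNF. The members of both sets were chosen by their values in Ad-GFP and scramble, so only the levels in the other groups are separate measurements.

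ENSRNOT00000009448 ranked second among the rises by the log2 fold change as fitted, with replicates much closer together than those of the first. It stood at 10.2, 15.1 and 18.6 FPKM in Ad-GFP and at 2075, 2221 and 2157 FPKM in scramble with TNF. The groups did not overlap, and the ratio of the means was 147. On the log2 scale it rose by 7.14 (SE 0.17, limma adjusted p = 7.15e-10), and this value lay between 6.92 and 7.33 under the alternatives tried. In the other arms it was at 13.7, 16.2 and 16.7 FPKM in Ad-Cklf1 and at 2095, 2262 and 2107 FPKM in shRNA Cklf1 with TNF. Both groups with TNF were thus high and both groups without it low.

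ENSRNOT00000091327 ranked first among the rises by the log2 fold change as fitted, with libraries far apart within each group. With a pseudocount of 0.1 its value was 7.20, against 7.23 for ENSRNOT00000009448. The order of the rises thus depended on the pseudocount, and the other rises were not ranked at 0.1. It was at 22.4, 409.7 and 1839 FPKM in Ad-GFP and at 34955, 13426 and 114345 FPKM in scramble with TNF. The groups did not overlap (log2 fold change 7.18, SE 2.16, limma adjusted p = 0.0155). The call was lost without Ad-GFP replicate 1 (log2 fold change 5.44, limma adjusted p = 0.0620) and without scramble replicate 3 (6.38, limma adjusted p = 0.0536), in a range of adjusted p from 0.00929 to 0.0620 over all alternatives. In the other groups it varied as widely, at 16197, 1318 and 15552 FPKM in Ad-Cklf1 and at 447, 123430 and 1823 FPKM in shRNA Cklf1 with TNF. High values were thus seen with and without TNF, and low ones too. It made up 18.8% of the FPKM sum in scramble replicate 3, 6.55% in replicate 1 and 2.63% in replicate 2, against at most 0.363% in an Ad-GFP library. Without it the sums were 493729 to 498642 FPKM in scramble and 499370 to 505054 FPKM in Ad-GFP. The share of the sum held by the 100 most abundant transcripts was 32.3% to 43.1% in scramble and 29.98% to 30.38% in Ad-GFP. Without this transcript the ranges overlapped, at 30.08% to 30.59% and 29.98% to 30.40% (exact permutation p = 0.80, 2-sided, n = 3 each).

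ENSRNOT00000004278 fell the most. It was at 228, 117 and 164 FPKM in Ad-GFP and at 0.0122, 0.0106 and 0.165 FPKM in scramble with TNF (log2 fold change -7.28, SE 1.03, limma adjusted p = 0.000163). The 3 Ad-Cklf1 libraries were low as well, at 0.00705, 0.0166 and 0.270 FPKM, which had no TNF treatment. In shRNA Cklf1 with TNF it was at 26.5, 0.00260 and 0.00173 FPKM, so 1 library of that group stood apart. The SE was estimated from all 12 libraries, this one included. In a fit of only the 6 libraries compared, the limma adjusted p was 1.12e-05. The size of the fall depended on the pseudocount, with a log2 fold change of -10.1 at a pseudocount of 0.1. A gene's reads are shared out over its isoforms when FPKM are estimated per transcript, and whether reads moved to another isoform was not tested.

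ENSRNOT00000081924 fell with little spread between replicates, from 68.6, 77.5 and 74.1 FPKM in Ad-GFP to 0.925, 1.13 and 0.903 FPKM in scramble with TNF. The log2 fold change of -5.23 had an SE of 0.10 (limma adjusted p = 2.71e-10). With a pseudocount of 0.1 the log2 fold change was -6.09. It was at 3.62, 2.496 and 2.75 FPKM in Ad-Cklf1 and at 2.08, 1.99 and 2.10 FPKM in shRNA Cklf1 with TNF. Ad-GFP was thus the one group with a high level, and the groups without TNF differed from each other.

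**Figure D3:**
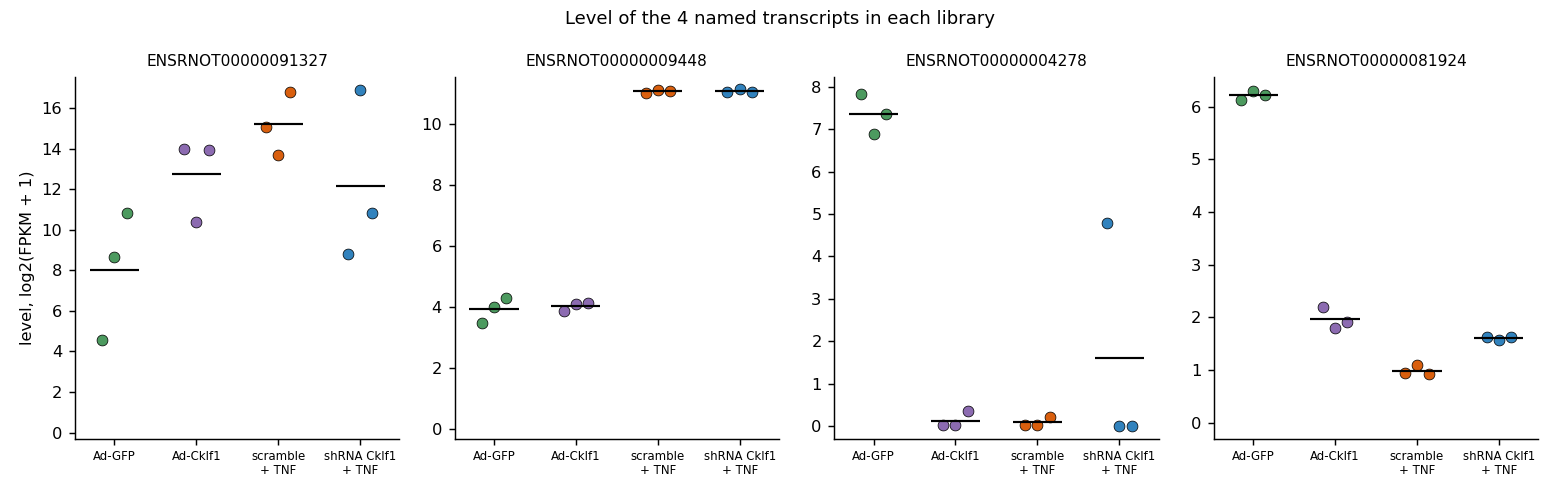
Level of the 4 named transcripts in each of the 12 libraries, as log2(FPKM + 1). Points are libraries and lines group means. ENSRNOT00000009448 is high in both groups with TNF, at 2075 to 2262 FPKM, while ENSRNOT00000004278 and ENSRNOT00000081924 are high in the 3 Ad-GFP libraries and low in all or most others.

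The other pair of groups that differs in TNF, shRNA Cklf1 with TNF against Ad-Cklf1, shares no library with the controls. It gives a second measurement of the difference between the arms, although Cklf1 was manipulated in both of its groups, in opposite directions. In it 2837 of the same 13729 transcripts were higher (20.7%) and 2858 lower (20.8%), together 41.5%, by limma (adjusted p below 0.05). Of the transcripts called between the controls, 4196 were called here too, which is 51.4% of the first list and 73.7% of the second. The direction was the same for 3715 of these (88.5%) and opposite for 481. The same direction meant higher in both for 1885 transcripts and lower in both for 1830. Pearson's r between the fold changes of the 2 pairs was 0.62 and Spearman's rho 0.53 over all tested transcripts. Transcripts are not independent replicates, and both comparisons share 1 estimate of the spread per transcript and any batch of the arms. Estimated depths did not overlap between the controls, but did between the groups of the second pair.

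Large rises were seen again in the second pair more often than large falls. Of the 535 transcripts that rose by at least 1 log2 unit between the controls, 440 (82.2%) were also called higher in the second pair and 8 lower. Of the 779 that fell by as much, 401 (51.5%) were also called lower and 28 higher. Among changes of at least 2 log2 units, 108 of 113 rises (95.6%) and 54 of 98 falls (55.1%) were called in the same direction. These shares stand against the 20.7% and 20.8% of all tested transcripts called higher and lower in the second pair. The sizes differed in the same way. The 113 rises had a median log2 fold change of 2.72 between the controls and of 2.60 in the second pair, while the 98 falls had medians of -2.39 and -0.65. Whether the share for rises differs from that for falls was not tested.

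The difference between the 2 fold changes was also tested for each transcript. By limma (adjusted p below 0.05) it was called for 4826 transcripts, or 35.2% of those tested (16% higher and 19.1% lower). Among the 113 rises of at least 2 log2 units it was called for 58, with the larger rise between the controls for 34 and in the second pair for 24. Among the 98 falls it was called for 79, with the larger fall between the controls for 78. The transcripts were picked by their change between the controls, which favours the larger value there.

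**Figure D4:**
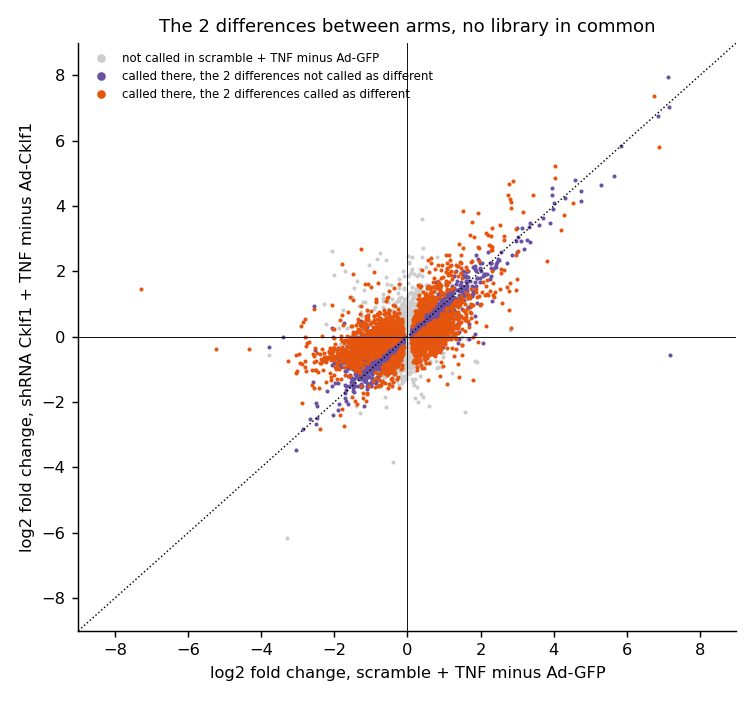
Log2 fold change of each tested transcript between the control groups (horizontal) and between shRNA Cklf1 with TNF and Ad-Cklf1 (vertical), which share no library. The dotted line marks equal changes, and orange points are transcripts called between the controls whose 2 fold changes were called as different. Rises of at least 2 log2 units lie on both sides of the line (median 2.72 against 2.60). For 58 of these 113 the 2 fold changes were called as different. Most falls beyond -2 lie closer to 0 on the vertical axis (median -2.39 against -0.65).

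The 20 largest rises and 20 largest falls with at least 10 FPKM in every library of the higher group were examined in all 4 groups. There were 2271 rises and 2626 falls to choose from. The 20 rises had log2 fold changes from 3.99 to 7.18, and 19 of them were called higher in the second pair as well, the exception being ENSRNOT00000091327. Their median level was 0.910 FPKM in Ad-GFP, 1.01 FPKM in Ad-Cklf1, 95.1 FPKM in scramble with TNF and 98.6 FPKM in shRNA Cklf1 with TNF. Apart from ENSRNOT00000091327, they were low in both groups without TNF and high in both groups with it. The third largest rise went from a mean of 0.528 FPKM in Ad-GFP to 209.9 FPKM in scramble, and from 0.354 FPKM in Ad-Cklf1 to 325 FPKM in shRNA Cklf1 with TNF. The sixth went from 8.86 to 1035 FPKM between the controls, and from 6.03 to 1149 FPKM in the second pair.

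The 20 falls had log2 fold changes from -7.28 to -2.76, of which 13 were called lower and 1 higher in the second pair. Their median level was 26.6 FPKM in Ad-GFP, 12.5 FPKM in Ad-Cklf1, 1.72 FPKM in scramble with TNF and 7.91 FPKM in shRNA Cklf1 with TNF. The 4 medians were thus graded, with Ad-GFP highest, scramble lowest and both groups with altered Cklf1 between them. The direct test of the difference was called for 17 of the 20, each with the larger fall between the controls. Among the 20 rises it was called for 7, with the larger rise between the controls for 4, against 35.2% of all tested transcripts. Single falls differed in pattern. The sixth largest stood at means of 75.4 FPKM in Ad-GFP and 91.1 FPKM in Ad-Cklf1, against 8.19 and 7.53 FPKM in the groups with TNF. The third stood at 335 FPKM in Ad-GFP and at 29.97, 15.7 and 22.6 FPKM in Ad-Cklf1, scramble and shRNA Cklf1. The twentieth stood at 497 FPKM in Ad-GFP, 351 FPKM in Ad-Cklf1 and 293 FPKM in shRNA Cklf1, and at 72.5 FPKM in scramble alone. Ad-GFP and scramble both enter the choice of these transcripts, so their place at the ends of the order is set by that choice.

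**Figure D5:**
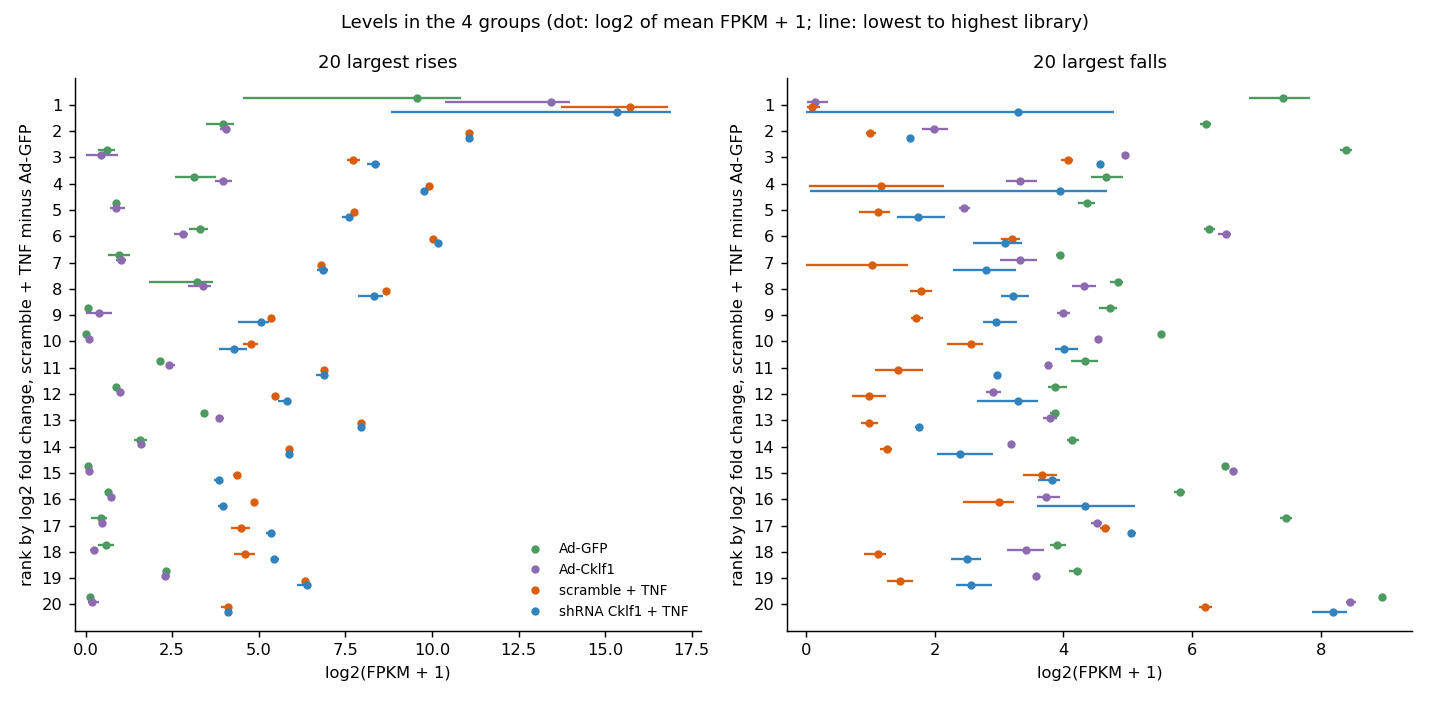
Levels of the 20 largest rises (left) and 20 largest falls (right) between the control groups, as log2(FPKM + 1) in the 4 groups. Dots are the log2 of the group mean plus 1 and lines run from the lowest to the highest library. For the rises from rank 2 on, both groups with TNF lie to the right of both groups without it, while among the falls the median level goes from 26.6 FPKM in Ad-GFP through 12.5 and 7.91 FPKM to 1.72 FPKM in scramble.

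A few transcripts passed from near 0 to expressed. Below 0.1 FPKM in all 3 Ad-GFP libraries and at 1 FPKM or more in all 3 scramble libraries were 21 transcripts, with scramble means of 1.33 to 39.9 FPKM and a median of 2.13 FPKM. Of these, 14 were also at 1 FPKM or more in all 3 libraries of shRNA Cklf1 with TNF, and 12 were below 0.1 FPKM in all 3 of Ad-Cklf1. The reverse pattern, near 0 in scramble and expressed in Ad-GFP, was found for 10 transcripts with Ad-GFP means of 1.38 to 3.40 FPKM. None of these 10 was below 0.1 FPKM in all 3 Ad-Cklf1 libraries, and 2 were below it in all 3 libraries of shRNA Cklf1 with TNF. Requiring 5 FPKM in the expressed group left 4 and 0. With a limit of 0.01 FPKM in place of 0.1 the numbers were 4 and 7, so which pattern was more frequent depended on the limit. Only 11 of the 21 and 5 of the 10 reached the mean of 1 FPKM needed for the test. Scramble had the lower estimated depth, 0.616 to 0.660 against 0.973 to 1.28, and a value near 0 is reached more easily there. The same holds for Ad-Cklf1 and shRNA Cklf1 with TNF, whose estimated depths were also below those of Ad-GFP.

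The groups were well separated as whole profiles. On the log2 scale over the tested transcripts, Ad-GFP libraries correlated with each other at 0.981 to 0.985 and scramble libraries at 0.981 to 0.982, while pairs across the groups lay at 0.913 to 0.919. Scramble correlated with shRNA Cklf1 with TNF at 0.962 to 0.971, and Ad-GFP with Ad-Cklf1 at 0.972 to 0.975. The median SD between replicates was 0.09 log2 units in both control groups.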

How the data were processed

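RNA was sequenced after oligo(dT) selection, per the labels' protocols. The authors deposited 1 FPKM value per Ensembl transcript and library. The unit was read from the header and the values. The build was Rnor 6.0, per the submitters' processing notes; aligner, quantifier and annotation release: not given in the sources used here. Values were transformed to log2(FPKM + 1). Transcripts averaging 1 FPKM or more across the 6 libraries were fitted with limma 3.58.1 in R 4.3.3, all 12 libraries in 1 fit, 1 mean per group, 8 residual degrees of freedom. The test was checked on simulated data with normal noise, in which 50 transcripts were changed for each size and direction. It called 62% of changes of 0.5 log2 units and 84% of those of 1 log2 unit, the same in each direction. It called 0.052% of the unchanged transcripts. Far fewer transcripts were changed there than were called here, so these shares may not hold for the data. Library-level values were compared by exact permutation. Named transcripts were the 2 largest log2 fold changes per direction among called ones with groups that did not overlap and at least 10 FPKM in every library of the higher group. The 16 gene lists planned (152 symbols) were not tested for lack of gene names. Members, lists and rules were chosen with earlier results of these data known. FPKM hold no read counts, so no counting intervals are given.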

Additional observations from a re-analysis of the deposited data

Results flagged for a closer look

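The test of the difference between the 2 fold changes, scramble with TNF minus Ad-GFP less shRNA Cklf1 with TNF minus Ad-Cklf1, was called for 2 of the 4 named transcripts. It was -8.75 log2 units for ENSRNOT00000004278 (SE 1.46, limma adjusted p = 0.00148) and -4.87 log2 units for ENSRNOT00000081924 (SE 0.14, limma adjusted p = 5.20e-08). For ENSRNOT00000091327 it was 7.75 (SE 3.05, limma adjusted p = 0.0744) and for ENSRNOT00000009448 0.12 (SE 0.23, limma adjusted p = 0.730). Over all tested transcripts the difference was called higher for 2202 and lower for 2624 (limma, adjusted p below 0.05). The same contrast sets the knockdown effect under TNF against the overexpression effect without it, and these readings cannot be told apart.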

How the results depend on the processing

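The signs of the 4 named fold changes were the same under the 16 alternatives tried for each, and 2 leave-one-out fits ended the call of ENSRNOT00000091327, as given above. Most other settings left the counts within 1.5 times. A filter at 10 FPKM, which tests fewer transcripts, gave 2265 higher and 2586 lower between the controls and 1710 higher in the second pair. Requiring 1 log2 unit left 535 and 779 between the controls, 523 and 240 in the second pair, 428 shared calls in the same direction and 10 in opposite ones, and 170 and 498 for the difference. Equal FPKM sums, chosen after seeing the data, gave 2126 higher between the controls, 1482 higher in the second pair, 2295 shared calls in the same direction and 147 in opposite ones, and 634 and 1549 for the difference; the sums move with ENSRNOT00000091327. A near-0 limit of 0.01 FPKM gave 4 transcripts near 0 in Ad-GFP and 7 near 0 in scramble, against 21 and 10, and 5 FPKM in the expressed group gave 4 and 0. Leaving out each of the 6 control libraries gave 3564 to 3754 higher and 3780 to 3932 lower between the controls. Leaving out each of the other 6, which changes only the estimate of the spread, gave 3899 to 4111 and 4104 to 4341. Leaving out each of the 12 gave 349 to 476 opposite calls. The replicate block gave 3973 higher and 4217 lower. Between the groups of each pair, the deviations of libraries with the same number had correlations from -0.057 to 0.040. These few correlations cannot show whether libraries with the same number shared an animal, culture or day.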
